A study of Mus musculus with 31 samples.

Results

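The genes described here are those carried by the mouse mitochondrial genome, chosen as every gene whose symbol starts with mt-. The GENCODE M21 annotation of the mouse build GRCm38 holds 37 of them, all on chrM: 13 protein-coding genes, 2 ribosomal RNA genes and 22 tRNA genes. The bulk table lists the 13 mRNAs among its 34865 identifiers. The Smart-seq2 table lists all 37 among its 55487 identifiers, and 15 of these, the 13 mRNAs and both rRNAs, were above 0 in at least 1 library. All 22 tRNAs were listed at 0 in every Smart-seq2 library.

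The series, whose title names Axin2, a feedback inhibitor of Wnt signalling, and stem cell competition, holds 31 samples of mouse embryonic brain. Bulk RNA-seq was made at E10.5, counted in days of embryonic life, from 3 dorsal and 3 ventral diencephalon samples of wild-type mice, and the comparison addresses how these regions differ. Smart-seq2, which reads full-length transcripts of single cells or minute inputs, gave 13 libraries labelled Emx1-cre(+/-)::MDMD::Axin2(-/-), called Axin2-null here, and 12 labelled Emx1-cre(+/-)::MDMD::Axin2(+/+), called Axin2 wild type. Both Smart-seq2 genotypes came from E11.5 medial cortex, dissociated from mice bred as Emx1-CreERT2::MADM-11::Axin2LacZ/+, so both carried the Emx1-driven recombinase, which acts in cortical progenitors, and the MADM cassettes. MADM (mosaic analysis with double markers) uses recombination between homologous chromosomes to label mutant cells in 1 colour and wild-type cells in another within the same embryo. The labels call all samples neural progenitor cells, and name neither the animal behind a library nor the strain of the bulk embryos.

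Mitochondria keep a small circular genome whose strands are both transcribed as long precursors, and the tRNAs that lie between the other genes mark where the precursors are cut. The mRNAs encode core subunits of the respiratory chain: complex I (mt-Nd1 to mt-Nd6 and mt-Nd4l), which takes electrons from NADH, complex III (mt-Cytb), complex IV (mt-Co1 to mt-Co3), which passes them to oxygen, and complex V (mt-Atp6 and mt-Atp8), the ATP synthase. Their partner subunits, the mitochondrial ribosomal proteins and the enzymes that copy, cut and translate these RNAs are encoded in the nucleus and imported.

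The mRNA genes lie close together, and 12 of the 13 are on the plus strand. mt-Nd6 (chrM:13552-14070) is the only one on the minus strand and overlaps the end of mt-Nd5 (chrM:11742-13565) by 14 bases. mt-Atp8 (chrM:7766-7969) shares 43 bases with mt-Atp6 (chrM:7927-8607), and mt-Nd4l (chrM:9877-10173) shares 7 bases with mt-Nd4 (chrM:10167-11544). Nothing in the sources used here says that reads were counted by strand, so reads in such overlaps cannot be given to a single gene. The junctions are shown on the plus strand of GRCm38 from the GENCODE M21 transcripts, because 2 genes share the bases in capitals (chrM:7907-7989 and chrM:10137-10203).
mt-Atp8/mt-Atp6 junction: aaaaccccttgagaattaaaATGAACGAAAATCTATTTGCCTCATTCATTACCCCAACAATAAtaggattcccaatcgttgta
mt-Nd4l/mt-Nd4 junction: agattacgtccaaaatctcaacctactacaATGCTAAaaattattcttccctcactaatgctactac

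Copies of mitochondrial DNA in the nuclear genome share reads with these genes as well. A search of all annotated nuclear transcripts with blastn (at least 90% identity over at least 100 bases) found 17 genes that copy a mitochondrial mRNA gene, and 7 of them lie side by side on the minus strand of chromosome 1 as unprocessed pseudogenes, between 24611535 and 24616197. Gm28439 matched mt-Nd4 over 876 bases, Gm10222 matched mt-Nd4l over 294, Gm28437 matched mt-Co3 over 783, Gm10925 matched mt-Atp6 over 678 and Gm28661 matched mt-Co2 over 681, each at 100% identity. Gm28438 matched mt-Nd3 (chrM:9459-9806) over 345 bases with 1 mismatch, and Gm29216 matched mt-Co1 (chrM:5328-6872) over 483 bases with 1 mismatch. A read from such a stretch could come from either place, and 5 of the 7 copies took counts in the bulk table and all 7 were above 0 in some Smart-seq2 library. The other 10 copies held at most 29 counts in any bulk library where they were listed. The stretches at the 2 mismatches are shown 5′ to 3′ along the gene, with the differing base in capitals (mt-Nd3 chrM:9459-9501 and mt-Co1 chrM:6390-6433 on the plus strand, Gm28438 chr1:24613077-24613119 and Gm29216 chr1:24616145-24616188 on the minus strand).
mt-Nd3: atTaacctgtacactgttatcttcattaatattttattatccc
Gm28438: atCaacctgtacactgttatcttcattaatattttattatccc
mt-Co1: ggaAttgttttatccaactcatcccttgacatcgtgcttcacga
Gm29216: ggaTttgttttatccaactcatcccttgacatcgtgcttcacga
Counting from 1 at the gene's 5′ end, the difference is T3C in the mt-Nd3 pair, at the last base of the first codon, and A1066T in the mt-Co1 pair. Outside these bases the aligned stretches are identical. The sequences are those of the reference, and since the labels do not name the strain of the bulk embryos, which base their mitochondrial genome carries there is not known.

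The dorsal bulk libraries held 17604166 to 20622702 counts and the ventral libraries 17769770 to 20838002. All 11 neural progenitor markers reached the minimum for testing, as did all 10 neuron markers. Neuron markers held a mean of 0.549% of dorsal and 0.551% of ventral counts, and progenitor markers 0.0896% of dorsal and 0.0723% of ventral counts. These sums hold markers that moved in opposite directions. Of the 10 neuron markers, 4 passed as higher and 2 as lower in dorsal (edgeR). Of the 11 progenitor markers, 4 passed as higher and 2 as lower. Of all genes tested, 7.14% were higher and 9.54% lower. For region, 8 of 8 dorsal diencephalon markers tested were higher in dorsal and 10 of 10 ventral markers lower, while all 6 forebrain cortex markers were also higher in dorsal, at 0.147% to 0.159% of dorsal and 0.00394% to 0.00525% of ventral counts. The ventral libraries also held genes of other organs. Small intestine markers made up 0.00182%, 0.00179% and 0.00253% of counts in dorsal libraries 1, 2 and 3, against 0.818%, 1.41% and 0.404% in ventral libraries 1, 2 and 3, with Cdx1 and Defa2 at 0 in all dorsal libraries. Exocrine pancreas markers ranged from 0.00102% to 0.00163% in dorsal and from 0.153% to 0.633% in ventral libraries, and B and plasma cell markers from 0.000282% to 0.000545% in dorsal and from 0.0266% to 0.0905% in ventral libraries. Macrophage markers ranged from 0.000161% to 0.000631% in dorsal and from 0.00101% to 0.00570% in ventral libraries. Red blood cell markers went the other way, from 0.0193% to 0.0307% in dorsal and from 0.0115% to 0.0190% in ventral libraries. Genes of G2 and M phase stood at 0.0924% ± 0.00549 of dorsal and 0.0217% ± 0.00591 of ventral counts. Genes of S phase stood at 0.141% ± 0.0213 of dorsal and 0.0549% ± 0.00797 of ventral counts, and genes of stress and dissociation at 0.0357% ± 0.00404 of dorsal and 0.0918% ± 0.0100 of ventral counts (SD, n = 3 each). Their part in the results was not tested. Fewer cells of a type and less RNA per cell cannot be told apart in bulk samples. The labels do not say whether the 3 libraries of a region are separate embryos or dissections. The p-values therefore set the difference between regions against the variation among these libraries, and that variation may be technical.

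All 13 mitochondrial mRNAs had a negative log2 fold change of dorsal over ventral diencephalon, with a median of -0.97, against 0.0062 over the 14701 genes tested, of which 49.5% were below 0. In edgeR's quasi-likelihood test with Benjamini-Hochberg adjustment over all genes, 5 of 13 fell in dorsal and 0 rose, where 9.54% of all genes tested fell and 7.14% rose. The 5 were mt-Nd3, mt-Nd2, mt-Nd4, mt-Cytb and mt-Co3. By CPM (counts per 1000000 after TMM scaling), the regions did not overlap for 10 of 13, all lower in dorsal, where 20.0% of all genes were lower in dorsal without overlap and 39.0% did not overlap in either direction. The count of 5 depended on single libraries. With any of dorsal library 1, 2 or 3 or ventral library 1 or 2 left out, mt-Nd3 alone passed, 1 of 13, beside 5.67%, 6.14%, 12.4%, 6.26% and 6.19% of all genes as lower in dorsal, a share near or below the background. In these fits all 13 stayed negative, and 12, 11, 9, 11 and 7 of 13 had an unadjusted edgeR p under 0.05. The share of all genes under that unadjusted p is not given here. Without ventral library 3 there were 11 of 13, beside 13.1% of all genes. DESeq2 called 12 of 13 as lower in dorsal, beside 13.7% of all genes, and edgeR with no minimum on counts called 10, beside 6.39%.

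**Figure D1:**
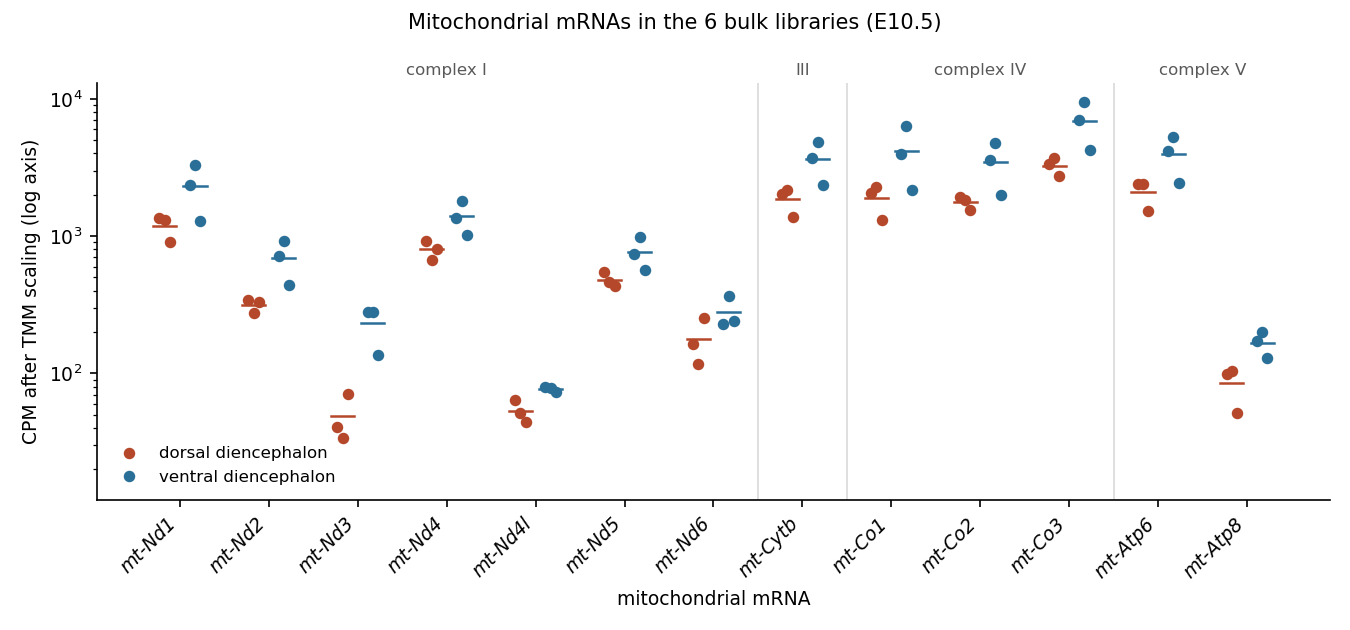
CPM after TMM scaling (log axis) of the 13 mitochondrial mRNAs, as deposited, in each bulk library, grouped by respiratory complex, with points for the 3 dorsal and 3 ventral libraries and a line at the mean of each region. The regions overlap for mt-Nd1, mt-Nd6 and mt-Co1 and do not for the other 10.

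Among the complex I subunits, mt-Nd3 had the most negative log2 fold change. It was at 40.9, 33.6 and 71.3 CPM in dorsal libraries 1, 2 and 3, against 278, 279 and 137 CPM in ventral libraries 1, 2 and 3. The highest dorsal library stood below the lowest ventral one. Its log2 fold change was -2.25 (SE 0.38, edgeR adjusted p = 0.0056), and it passed in all 12 alternatives run on the counts as deposited.

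That value did not carry over to the sum of mt-Nd3 and its chromosome 1 copy. Gm28438 was at 109, 106 and 90.9 CPM in dorsal libraries 1, 2 and 3, against 24.0, 51.5 and 13.5 CPM in ventral libraries 1, 2 and 3, so it moved the opposite way to the gene. It rose in dorsal with a log2 fold change of 1.78 (SE 0.44, edgeR adjusted p = 0.028). The call of this copy was lost without dorsal library 1, 2 or 3 or ventral library 1, with an edgeR adjusted p between 0.053 and 0.11.

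Of the counts given to the pair, the copy held 72.7%, 75.9% and 56.0% in dorsal libraries 1, 2 and 3, against 7.95%, 15.6% and 8.94% in ventral libraries 1, 2 and 3. The regions did not overlap, at 68.2% ± 10.7 in dorsal and 10.8% ± 4.15 in ventral (SD, n = 3 each; exact two-sided permutation p = 0.1, the smallest that 3 against 3 allows, and 0.5 adjusted over the 5 pairs compared). Summed over gene and copy, mt-Nd3 was at 149.8, 139 and 162 CPM in dorsal libraries and at 302, 331 and 150.5 CPM in ventral libraries. These ranges overlapped, the log2 fold change was -0.80 (SE 0.28) and the edgeR adjusted p was 0.10. The sum passed as lower in dorsal with DESeq2 (-0.82, adjusted p = 0.035) and in edgeR without ventral library 3 (-1.10, adjusted p = 0.0032), and in edgeR it missed with any other library left out. Which of the pair the reads came from cannot be told from these counts. The aligned stretches differ at 1 reference base, so the fold change of mt-Nd3 as deposited and the copy's share of the pair also depend on the unknown base the embryos carry there.

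The bars of gene and copy show this exchange for mt-Nd3, and a different one for mt-Co1.

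**Figure D2:**
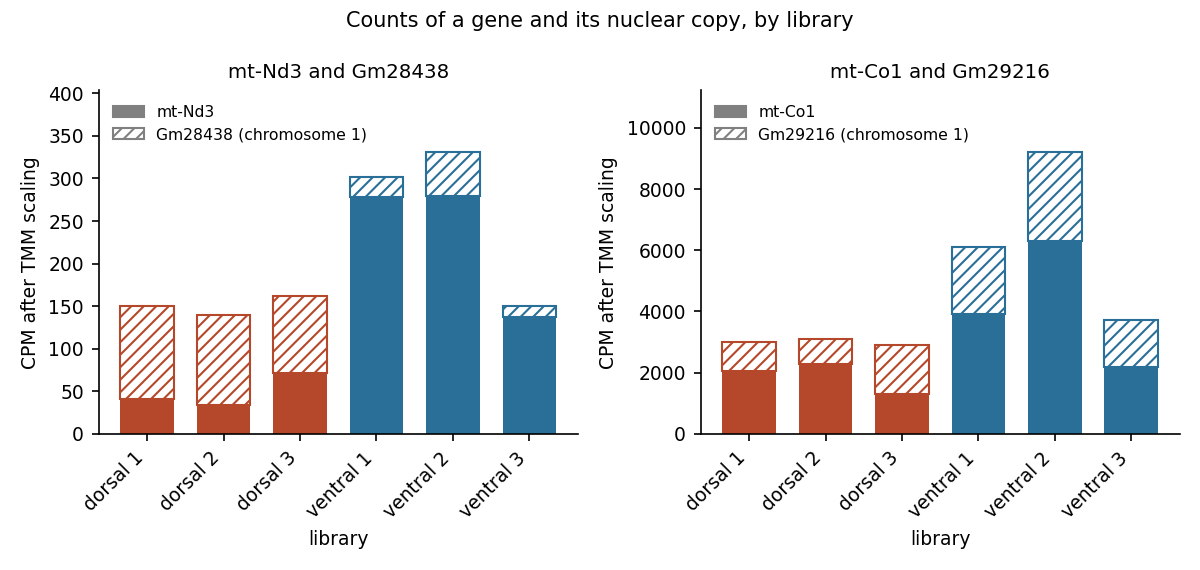
CPM after TMM scaling of mt-Nd3 with Gm28438 (left) and of mt-Co1 with Gm29216 (right) in each of the 3 dorsal and 3 ventral libraries, with the gene as the solid and the copy as the hatched part of each bar. The copy holds most of the mt-Nd3 pair in dorsal libraries and little of it in ventral ones, while its share of the mt-Co1 pair overlaps between regions.

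mt-Co1, a catalytic subunit of complex IV, was at 2069.6, 2289.9 and 1305 CPM in dorsal libraries 1, 2 and 3, against 3933, 6314 and 2171 CPM in ventral libraries 1, 2 and 3. The regions overlapped, and mt-Co1 missed the threshold (log2 fold change -1.13, SE 0.37, edgeR adjusted p = 0.079). The aligned stretch of Gm29216 covers 31.3% of mt-Co1. This copy held 31.2%, 26.3% and 54.9% of the pair in dorsal libraries and 35.6%, 31.4% and 41.7% in ventral libraries. Dorsal library 3 had both the lowest count of the gene and the highest share of the copy. Summed, the pair stood at 3010.3, 3105 and 2896 CPM in dorsal libraries and at 6106, 9198 and 3721 CPM in ventral libraries, with no overlap. The sum fell in dorsal with a log2 fold change of -1.08 (SE 0.28, edgeR adjusted p = 0.037).

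The other copies added little in bulk. Gm28661, Gm10925 and Gm28437 held between 0% and 4.24% of their pairs in every library, and Gm10222 and Gm28439 had no count in any. Their counts were uneven between libraries of 1 region: Gm28437 had 1948, 3402 and 1 counts in dorsal libraries 1, 2 and 3, against 5049, 5522 and 955 in ventral libraries 1, 2 and 3. With all copies added, 5 of 13 mRNAs again fell, mt-Co1 in place of mt-Nd3, beside 9.55% of all genes. In that setting 0 of 13 passed (edgeR) when any of the dorsal libraries or ventral library 1 or 2 was left out, beside 5.70%, 6.17%, 12.4%, 6.30% and 6.19% of all genes, with 7 to 11 of the 13 at an unadjusted p under 0.05. Without ventral library 3 there were 11, beside 13.1% of all genes, and DESeq2 with copies added called 12, beside 13.7%.

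**Figure D3:**
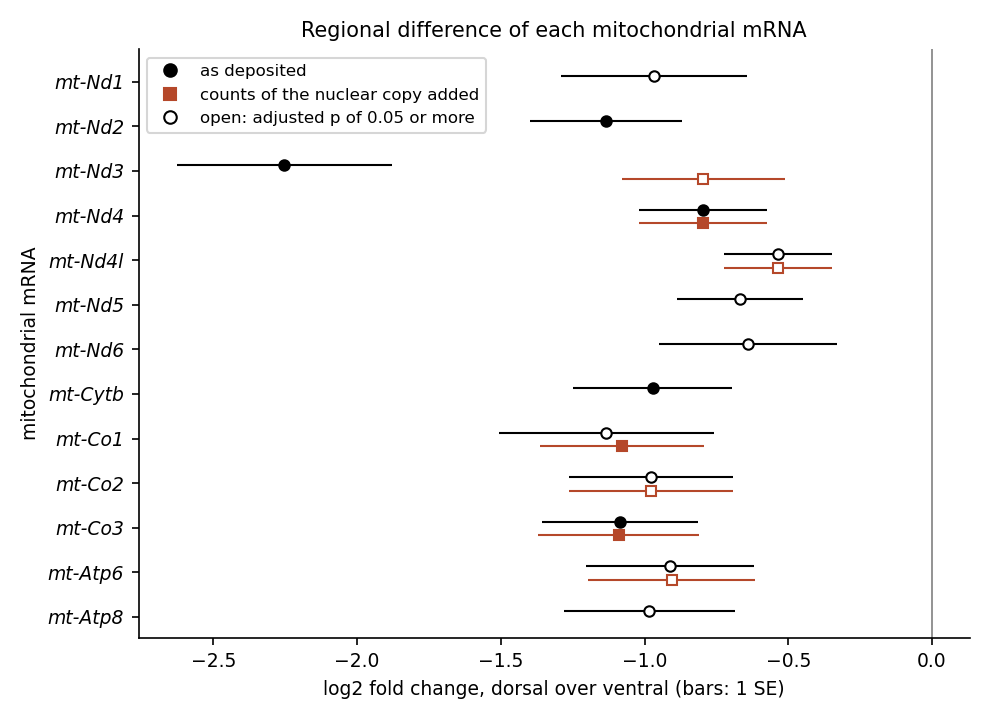
Log2 fold change of dorsal over ventral diencephalon for the 13 mitochondrial mRNAs, with bars of 1 standard error from edgeR, for counts as deposited (circles) and for the 7 genes with a chromosome 1 copy also with its counts added (squares), where filled symbols passed an adjusted p of 0.05. The mt-Nd3 point moves from -2.25 to -0.80 when the copy is added, and the other 6 stay close to their deposited values.

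The other complex I mRNAs without a counted copy were closer to each other. mt-Nd2 was at 345, 273 and 328 CPM in dorsal libraries, against 714, 923 and 440.2 CPM in ventral libraries, with no overlap, and fell with a log2 fold change of -1.13 (SE 0.26, edgeR adjusted p = 0.022). mt-Nd4 was at 918, 675 and 808 CPM in dorsal libraries and at 1353, 1795 and 1022 CPM in ventral libraries, with no overlap, and also fell (log2 fold change -0.80, SE 0.22, edgeR adjusted p = 0.046). Both missed the threshold when dorsal library 1, 2 or 3 or ventral library 1 or 2 was left out, with adjusted p between 0.051 and 0.084 for mt-Nd2 and between 0.080 and 0.15 for mt-Nd4.

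mt-Nd1 was between 907 and 1346 CPM in dorsal and between 1293 and 3302 CPM in ventral libraries, and the ranges overlapped (log2 fold change -0.97, edgeR adjusted p = 0.083). mt-Nd5 (-0.67, adjusted p = 0.079) and mt-Nd4l (-0.54, adjusted p = 0.096) did not overlap between regions and did not pass. mt-Nd6, from the minus strand, was at 164, 117 and 253 CPM in dorsal libraries and at 228, 366 and 239 CPM in ventral libraries. Its dorsal library 3 exceeded ventral libraries 1 and 3, and its log2 fold change of -0.64 had the highest adjusted p of the 13, at 0.21.

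mt-Cytb, the only complex III subunit of this genome, was at 2016, 2170.3 and 1370.2 CPM in dorsal libraries, against 3730.2, 4824 and 2343 CPM in ventral libraries. The regions did not overlap, and mt-Cytb fell with a log2 fold change of -0.97 (SE 0.28, edgeR adjusted p = 0.049). Of complex IV, mt-Co3 was at 3377, 3691 and 2729 CPM in dorsal libraries and at 6986, 9539 and 4265 CPM in ventral libraries, again with no overlap, and fell (log2 fold change -1.09, SE 0.27, edgeR adjusted p = 0.030). When any dorsal library, or ventral library 1 or 2, was left out, the edgeR adjusted p was between 0.075 and 0.15 for mt-Cytb and between 0.059 and 0.089 for mt-Co3. mt-Co2 just missed (log2 fold change -0.98, edgeR adjusted p = 0.053). The complex V mRNAs mt-Atp8 (-0.98, adjusted p = 0.060) and mt-Atp6 (-0.91, adjusted p = 0.073) did not overlap between regions either.

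By complex, the shares of all counts did not overlap between regions. The complex IV mRNAs took 0.703% ± 0.126 of counts in dorsal and 1.42% ± 0.573 in ventral libraries. The complex I mRNAs took 0.312% ± 0.0366 in dorsal and 0.564% ± 0.184 in ventral libraries, and the complex V mRNAs 0.223% ± 0.0569 in dorsal and 0.404% ± 0.135 in ventral libraries. mt-Cytb, of complex III, took 0.188% ± 0.0446 in dorsal and 0.356% ± 0.115 in ventral libraries (SD, n = 3 each; exact permutation p = 0.1 for each complex, the smallest possible). For all 13 mRNAs together the difference was -1.32 percentage points, dorsal minus ventral, and with a library left out it ran between -1.83 and -0.82, the extremes coming from ventral library 3 and ventral library 2 being omitted. The ventral libraries ranked alike for every complex, with library 2 highest and library 3 lowest. The intestine, pancreas and B and plasma cell markers had the same order in the ventral libraries, and their part in the result was not tested. Leaving those 3 lists out of the library totals left 1.43% ± 0.249 of dorsal and 2.79% ± 1.04 of ventral counts in mitochondrial mRNA, with no overlap.

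The makeup of the mitochondrial mRNA pool was compared through the share of it that each mRNA held. Of the 13 mRNAs, 2 had shares of the pool that did not overlap between regions. mt-Co3 held 22.1%, 24.0% and 24.0% of it in dorsal libraries and 24.6%, 24.7% and 24.9% in ventral libraries. mt-Nd3 held 0.267%, 0.218% and 0.627% in dorsal libraries and 0.981%, 0.722% and 0.801% in ventral libraries. Both had an exact permutation p of 0.1 (0.65 adjusted over the 13), which is the smallest possible. With the copies added, 0 of 13 shares were without overlap, with mt-Nd3 at 0.997% ± 0.215 in dorsal and 0.855% ± 0.108 in ventral (SD, n = 3 each). mt-Nd6 held 1.07%, 0.763% and 2.23% of the pool in dorsal libraries and 0.804%, 0.946% and 1.40% in ventral libraries, with overlap, and its difference in mean share turned from 0.31 to -0.13 percentage points, dorsal minus ventral, without dorsal library 3.

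Per kilobase of gene and with counts as deposited, mt-Co3 was the most abundant mRNA in both regions, at a mean of 4165 CPM per kb in dorsal and 8839 in ventral libraries, followed by mt-Atp6, mt-Co2 and mt-Cytb. With Gm29216 added, mt-Co1 stood at 1944 CPM per kb in dorsal and 4105 in ventral, above mt-Cytb at 1619 in dorsal and 3175 in ventral. mt-Nd3 was the least abundant in dorsal as deposited, at 139.6 CPM per kb against 665 in ventral, and stood at 432 CPM per kb in dorsal and 750.3 in ventral once Gm28438 was added. mt-Atp8 was counted at 0.132 ± 0.0171 of the level of mt-Atp6 per kb in dorsal and 0.147 ± 0.0257 in ventral libraries (SD, n = 3 each). These genes lie on 1 bicistronic mRNA. The ratio of mt-Nd4l to mt-Nd4 per kb was 0.309 ± 0.0511 in dorsal and 0.269 ± 0.0656 in ventral. Both ratios overlapped between regions.

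The nuclear genes that work with these transcripts were described through 12 lists with 265 genes tested. Of these, 6 fell and 1 rose in dorsal, beside 9.54% and 7.14% of all genes tested. Polg, the catalytic subunit of the mitochondrial DNA polymerase, rose to 48.2 ± 9.64 CPM in dorsal, against 23.7 ± 3.01 CPM in ventral (SD, n = 3 each; log2 fold change 1.03, edgeR adjusted p = 0.018), as 1 of 20 genes of transcription and genome maintenance. None of 33 genes of RNA processing, 20 tRNA synthetases, 12 translation factors or 9 biogenesis regulators passed (edgeR), with 2, 3, 0 and 0 of them at an unadjusted p under 0.05 and 2, 3, 0 and 0 called by DESeq2.

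Of 78 mitochondrial ribosomal proteins, 1 fell: Mrps6, of the small subunit, averaged 67.4 ± 19.4 CPM in dorsal against 155 ± 34.0 CPM in ventral libraries (log2 fold change -1.20, edgeR adjusted p = 0.016). The partner subunits of the chain had median log2 fold changes of -0.29 for 38 of complex I, -0.19 for 9 of complex III, -0.34 for 11 of complex IV and -0.30 for 16 of complex V. Complex III was the only one of these with calls. Uqcrb fell by 0.92 and Uqcrfs1, the Rieske iron-sulfur protein, fell by 0.61 on the log2 scale (edgeR adjusted p = 0.029 and 0.036). None of the genes of complexes I, IV and V passed (edgeR), with 2, 0 and 1 at an unadjusted p under 0.05 and 1, 0 and 1 called by DESeq2. None of the 4 subunits of complex II, which has no mitochondrially encoded part, passed either, with 0 at an unadjusted p under 0.05 and 0 by DESeq2. Their median log2 fold change was -0.32. They took 0.0826% ± 0.00417 of dorsal and 0.0987% ± 0.00762 of ventral counts, without overlap (SD, n = 3 each, exact permutation p = 0.1, the smallest possible).

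Of 15 genes used as a proxy for mitochondrial mass, 3 fell. Slc25a5, an ADP/ATP carrier of the inner membrane, averaged 387 ± 50.2 CPM in dorsal against 1037 ± 194 CPM in ventral libraries (log2 fold change -1.42, edgeR adjusted p = 0.0019). Vdac2, a channel of the outer membrane, averaged 193 ± 5.33 CPM in dorsal against 335 ± 18.2 CPM in ventral libraries (log2 fold change -0.79, edgeR adjusted p = 0.0068). The list took 0.349% ± 0.00798 of dorsal and 0.465% ± 0.0362 of ventral counts, without overlap (SD, n = 3 each; exact permutation p = 0.1, the smallest possible).

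Dorsal library 3 stood apart in the nuclear lists. The complex IV partner subunits took 0.226%, 0.240% and 0.488% of counts in dorsal libraries 1, 2 and 3, against 0.378%, 0.372% and 0.382% in ventral libraries, so that dorsal library 3 lay above and the other dorsal libraries below all ventral ones. The same order held for the complex I, III and V lists and for the ribosomal proteins. The 13 mitochondrial mRNAs together went the other way: dorsal library 3 held 1.14% of its counts in them, the lowest of the 6 libraries. Without dorsal library 3, 86 of the nuclear genes in the lists fell in dorsal, beside 12.4% of all genes tested, among them 25 of 38 of complex I, 7 of 9 of complex III, 10 of 11 of complex IV, 10 of 16 of complex V and 24 of 78 ribosomal proteins. Lars2, the gene of the mitochondrial leucyl-tRNA synthetase, was named after its values were seen. It was at 2686, 1079 and 24375 CPM in dorsal libraries and at 842, 304 and 1426 CPM in ventral libraries. Alone it held 2.44% of the counts of dorsal library 3. Lars2 was also the only gene counted in bulk from a list of rRNA-like reference genes. Whether its counts include reads of rRNA was not tested.

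The Smart-seq2 libraries are given as description, since no label ties a library to an animal and each genotype therefore counts as 1 sample. Their values are TPM (transcripts per 1000000), which keep no depth. Forebrain cortex markers held 0.0255% to 0.0562% of TPM in null and 0.0308% to 0.0600% in wild-type libraries, and small intestine markers at most 0.00177% in any. In the Axin2-null libraries the 37 mitochondrial genes held between 0.384% and 5.71% of TPM, with a median of 1.84%. In the Axin2 wild-type libraries they held between 2.11% and 8.80%, with a median of 3.40%. The ranges overlapped, and 11 of 13 null libraries lay below the wild-type median and 7 below the lowest wild-type library. The mean was 2.21% ± 1.38 over 13 null libraries and 3.96% ± 1.86 over 12 wild-type libraries (SD over libraries), a difference of -1.75 percentage points.

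**Figure D4:**
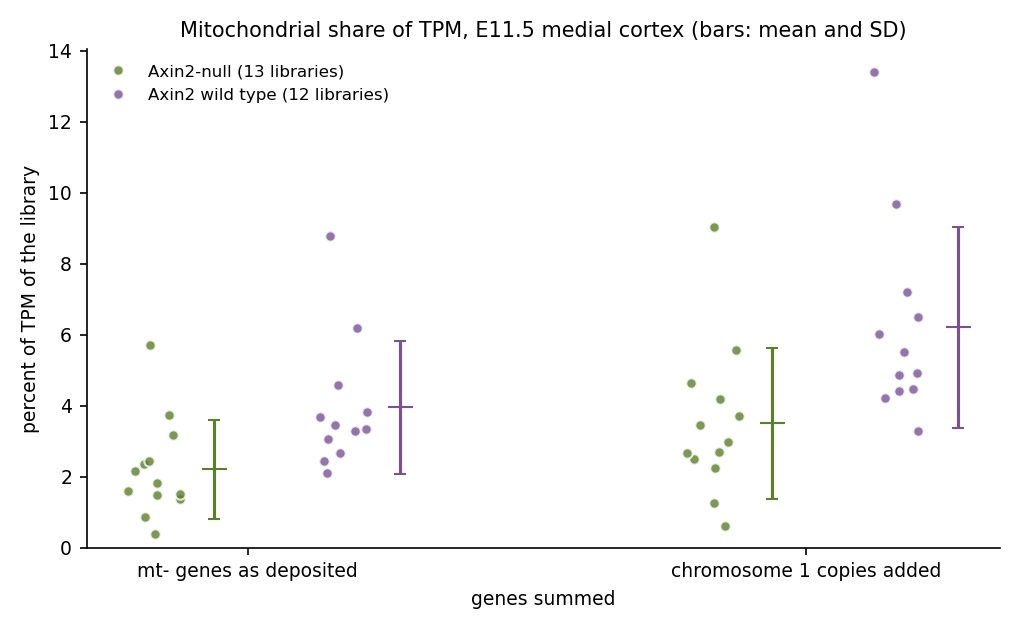
Percent of TPM held by the mitochondrial genes in each of 13 Axin2-null and 12 Axin2 wild-type Smart-seq2 libraries, for the mt- genes as deposited (left) and with the 7 chromosome 1 copies added (right), with the mean and SD over libraries beside the points. In both, 11 of 13 null libraries lie below the wild-type median, with overlapping ranges.

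In bulk the chromosome 1 copies took between 6.98% and 12.9% of the counts of copies and mitochondrial mRNAs together. In the 25 Smart-seq2 libraries they took between 27.8% and 59.5% of the TPM of both, with a median of 41.4%. Counts and TPM, which is a level per length, are unlike measures. Gm10925 held a median of 84.9% of its pair with mt-Atp6 and exceeded the gene in 24 libraries. Gm28661 exceeded mt-Co2 in 24 libraries too, with a median of 74.0% of the pair. Gm28437 exceeded mt-Co3 in 19 and Gm29216 exceeded mt-Co1 in 18. Gm28438 held a median of 24.7% of its pair with mt-Nd3 (21.0% in null and 28.7% in wild type), ranging from 0% to 100% between libraries, and Gm10222 held 42.0% of its pair with mt-Nd4l, also from 0% to 100%. Gm28439 held at most 3.42% of its pair with mt-Nd4. The median for Gm28438 lay below its 56.0% to 75.9% of counts in dorsal bulk libraries and above its 7.95% to 15.6% in ventral ones.

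With the copies added, the mitochondrial share was 3.51% ± 2.13 over null and 6.21% ± 2.82 over wild-type libraries (SD over libraries). The Gm names thus held more than a percentage point of the library in each genotype, at a mean of 1.30% in null and 2.25% in wild type. Each level summed over mt- symbols alone leaves that amount out. TPM is a level per length, and the sums were not adjusted for it. Reads of Gm29216, at 492 bases against 1545 for mt-Co1, therefore weigh more in them than reads of the gene.

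Of the 15 transcripts above the minimum of a mean of 1 TPM, 14 had a negative difference of mean log2(TPM + 1), null minus wild type, as had 65.9% of the 13680 genes above it. The median was -1.20, against -0.22 over all genes. On this scale 12 of 15 were lower in null by 1 or more, where 8.14% of all genes were, and 0 were higher by as much, where 1.39% of all genes were. These counts rested in part on 1 null library, the lowest in mitochondrial share at 0.384%, against 0.866% to 8.80% in the other 24. It also held the highest share of red blood cell markers, at 5.18% of TPM, against 0.126% to 3.98% in the others, and the part of these cells in the result was not tested. Without it, 6 of 15 were lower by 1 or more (7.43% of all genes) with a median of -0.92, and the mean null share was 2.36% ± 1.33. With medians over libraries in place of means, 3 of 15 were (12.4% of all genes). With the copies added, 8 of 15 were (8.08% of all genes), and 3 of 15 with the copies added and that library left out (7.39% of all genes). In both counts the mt-Co1 sum gives reads of the shorter Gm29216 more weight.

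The libraries with the highest mitochondrial shares stood apart as well. CT010467.1, a nuclear gene that GENCODE annotates as rRNA and the gene of highest mean TPM, held 15.7% to 32.7% of TPM in 5 libraries (2 null and 3 wild type), against 1.05% to 11.8% in the others. These 5 held 3.18% to 8.80% of TPM in mitochondrial genes, against 0.384% to 3.82% in the others, and included the 4 libraries with the highest mitochondrial shares. Genes of stress and dissociation held 0.0223% to 0.153% of TPM in these 5, against 0.00676% to 0.0348% in the others. Across the 25 libraries, as a description, the mitochondrial share and the share of CT010467.1 had r of 0.56 and rho of 0.34. Without these 5 libraries, a choice made after the data were seen, the mitochondrial share was 1.80% ± 0.891 over 11 null and 3.10% ± 0.579 over 9 wild-type libraries (SD over libraries), a difference of -1.30 percentage points. The ranges then still overlapped, and 10 of 15 members were lower by 1 or more, beside 12.2% of all genes.

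**Figure D5:**
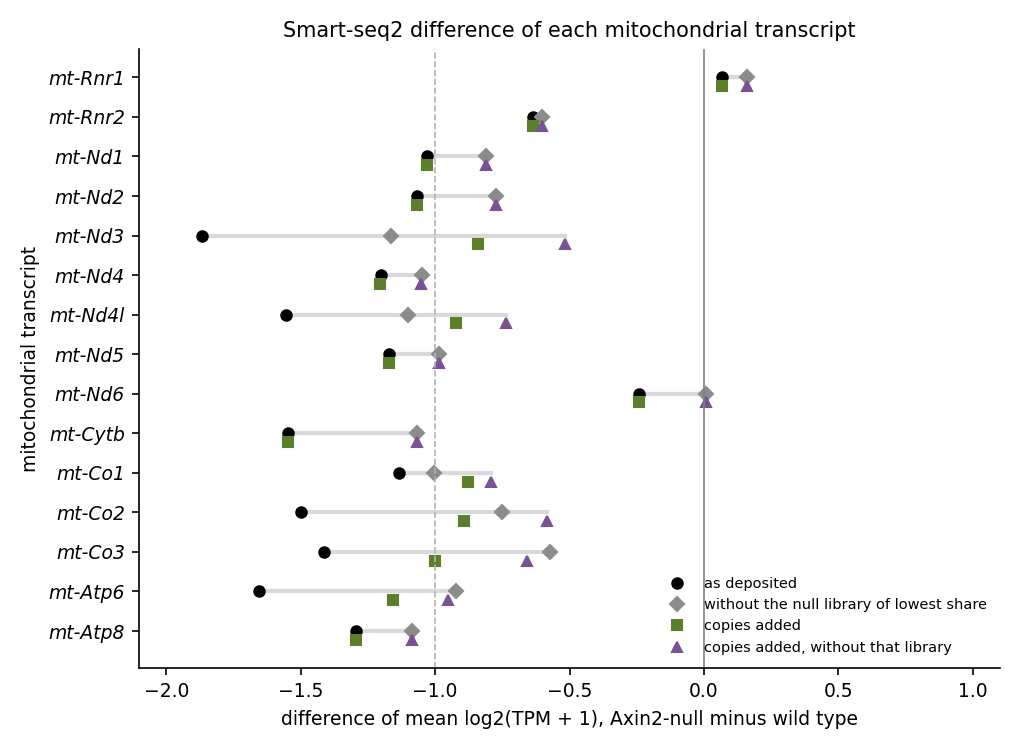
Difference of mean log2(TPM + 1), Axin2-null minus Axin2 wild type, for the 2 rRNAs and 13 mRNAs of the mitochondrial genome, as deposited (black circles), without the null library of lowest mitochondrial share (grey diamonds), with copies added (green squares) and with both changes (purple triangles), with a dashed line at -1. The mRNAs other than mt-Nd6 lie below 0 under each, and mt-Rnr1 lies above 0.

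mt-Atp8 had the highest median TPM of the 15 as deposited. In null libraries it ranged from 875 to 15277 TPM with a median of 5303, and in wild-type libraries from 6182 to 25655 TPM with a median of 11256. The ranges overlapped, with 9 of 13 null libraries below the lowest wild-type one, and the difference was -1.29. mt-Cytb ranged from 23.1 to 6756 TPM with a median of 1763 in null libraries, against 2175 to 10220 TPM with a median of 3629.7 in wild-type libraries. Again 9 of 13 null libraries lay below the wild-type range, and the difference of -1.55 became -1.07 without the lowest null library. mt-Nd4, with almost no reads in its copy, ranged from 90.7 to 1185 TPM with a median of 317 in null libraries, against 422 to 2109.5 TPM with a median of 632 in wild-type libraries, and its difference was -1.20.

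mt-Nd1 (-1.03), mt-Nd2 (-1.07) and mt-Nd5 (-1.17) also came out lower by 1 or more, and each was within 1 once the lowest null library was left out (-0.81, -0.77 and -0.98). mt-Co1 had a median of 1247 TPM in null and 2252 TPM in wild type, with a difference of -1.13. With the TPM of Gm29216 added, the medians were 2774 TPM in null and 5047 TPM in wild type, and the difference was -0.88. Because the copy is shorter than the gene, that sum overstates what the reads of the copy would add to mt-Co1. mt-Nd6 stood apart from the other mRNAs. It ranged from 15.5 to 581 TPM with a median of 144 in null libraries, against 42.7 to 575 TPM with a median of 157 in wild-type libraries. Its difference was -0.24 and reached 0.0081 without the lowest null library and 0.20 without the 5 libraries of high CT010467.1 share.

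The 5 other mRNAs were listed at 0 in some libraries. mt-Co2, mt-Atp6 and mt-Co3 were listed at 0 in 1 null library each, mt-Nd3 in 2 null libraries, and mt-Nd4l in 5 null and 3 wild-type libraries. With its copy added, none of them was listed at 0 in any library. The median of mt-Co2 was then 3408 TPM in null and 5603 TPM in wild type, and that of mt-Atp6 was 5059.7 TPM in null and 8883 TPM in wild type. The median of mt-Co3 was 3902 TPM in null and 6913 TPM in wild type. For mt-Nd3 it was 1532 TPM in null and 2371 TPM in wild type, and for mt-Nd4l 331 TPM in null and 912 TPM in wild type. Each was lower in null, with overlapping ranges. The differences as deposited, from -1.41 for mt-Co3 to -1.87 for mt-Nd3, became -0.89 for mt-Co2, -1.16 for mt-Atp6, -1.0 for mt-Co3, -0.84 for mt-Nd3 and -0.92 for mt-Nd4l.

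The ratio of mt-Atp8 to mt-Atp6 changed with the copy added, and whether the reads came from mt-Atp6 or Gm10925 was not tested. By TPM, which is a level per length, mt-Atp8 had a median of 7.58 times the level of mt-Atp6 over the libraries where mt-Atp6 was above 0, with 6.82 in null and 7.84 in wild type. With Gm10925 added to mt-Atp6 the ratio was 1.16, with 1.11 in null and 1.26 in wild type, and it ranged from 0.839 to 1.66 over all libraries. In the bulk table the same ratio per kb lay between 0.113 and 0.177. The tables were made separately, so these ratios were not compared by a test.

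The 2 rRNAs followed the mRNAs to differing degrees. Together they held a median of 0.317% of TPM in null and 0.411% in wild type. For this sum, 11 of 13 null libraries lay below the wild-type median. mt-Rnr1, of the small ribosomal subunit, ranged from 179 to 1832 TPM with a median of 865 in null libraries, against 270.3 to 3128 TPM with a median of 396 in wild-type libraries. Its mean log2 difference was 0.07, and its difference of medians 1.12. mt-Rnr2, of the large subunit, ranged from 427 to 7538 TPM with a median of 2315 in null libraries, against 1370.4 to 13516 TPM with a median of 3749.6 in wild-type libraries, a difference of -0.64. The ranges of both rRNAs overlapped. The rRNAs held a median of 20.4% of mitochondrial TPM in null and 12.3% in wild type, and the ratio of mt-Rnr2 to mt-Rnr1 had a median of 3.64 in null and 7.58 in wild type. mt-Nd6 held a median of 0.940% of mitochondrial mRNA TPM in null and 0.511% in wild type. A share of the pool moves with every other member of it.

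Across the 25 libraries of both genotypes, as a description, the log2 levels of mt-Nd1, mt-Nd2, mt-Co1, mt-Nd4, mt-Nd5, mt-Cytb and mt-Atp8 were correlated pairwise with Pearson's r between 0.85 and 0.95. mt-Nd6 was correlated with the same genes with r between 0.47 and 0.74. The mRNA and rRNA shares had r of 0.79 and Spearman's rho of 0.62, and the mRNA and copy shares r of 0.96. The points share libraries and a fixed total, which ties their values. The number of genes at 1 TPM or more had a median of 10791 in null and 11271 in wild type, with r of 0.0016 against the mitochondrial share.

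The nuclear partners lay on the other side of the median of all genes from the mitochondrial mRNAs. The median difference of log2(TPM + 1), null minus wild type, was 0.35 over 38 complex I subunits, 0.25 over 9 of complex III, 0.40 over 11 of complex IV, 0.29 over 16 of complex V and 0.25 over 78 mitochondrial ribosomal proteins. Of these genes 5, 1, 0, 2 and 15 had a negative difference, against 65.9% of all genes. The complex IV subunits encoded in the nucleus took between 0.609% and 1.43% of TPM with a median of 1.17% in null libraries, against 0.517% to 1.04% with a median of 0.863% in wild-type libraries. The ranges overlapped, and 12 of 13 null libraries lay above the wild-type median, whereas for the 3 complex IV mRNAs of the mitochondrial genome 11 of 13 lay below it. The lists of transcription and genome maintenance (-0.18), RNA processing (-0.32), tRNA synthetases (-0.31), translation factors (-0.19), complex II (0.0029), mitochondrial mass (0.11) and biogenesis (-0.22) had medians nearer to that of all genes or to 0, and no list was tested against another.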

How the data were processed

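The authors deposited a bulk table for 6 libraries and a Smart-seq2 table for 25. The tools STAR 2.7.0a, featureCounts and Trimmomatic and the builds mm10 and GRCm38 are named, without role or order, per the submitters' processing notes. Although called TPM by the authors, the deposited bulk values add up to 17604411 to 20838225 in a column, and 46.6% of those above 0 lay within 1e-04 of a whole number. These deposited values were therefore read as estimated counts and rounded to whole numbers. The deposited Smart-seq2 columns each sum to about 1000000 and hold TPM, so their depth is unknown. Smart-seq2 columns name a colour for each genotype and no numbered sample. Of the identifiers, 34581 (bulk) and 55141 (Smart-seq2) had a symbol in GENCODE M21.

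Genes averaging 1 CPM or more were tested with edgeR 4.0.16 (TMM, quasi-likelihood F test, Benjamini-Hochberg, threshold 0.05) in R 4.3.3. The procedure was also run on simulated counts with 1 dispersion for all genes. Such counts lack the uneven spread between these libraries, so they cannot show how the test behaves under it. DESeq2 1.42.0 was an alternative, and shares were compared by exact permutation (scipy 1.17.1). TPM differences are of mean log2(TPM + 1), which understates changes of low genes. Copies were found with blastn 2.17.0. Adding their counts or TPM, with no adjustment for length, was chosen after the data were seen. Within-region chi-square statistics per gene ran from 8.69 (dorsal libraries 1 and 2) and 21.0 (ventral libraries 1 and 2) to 137, so each library was counted.

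Named were all mt- genes above the minimum, their copies, and up to 2 called members per direction of each nuclear list. Members, gene lists and tests were chosen with earlier results of these data known. Alternatives were other scaling, tools, minimums, totals, copies added and each library left out.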

Additional observations from a re-analysis of the deposited data

How the results depend on the processing

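All 13 mRNAs kept a negative log2 fold change in every bulk alternative run, and 0 passed as higher in dorsal. The number that fell (5 as reported) was 12 with DESeq2, 10 with no minimum on counts and 12 with copies added and DESeq2, and ran from 1 to 11 with a library left out, or from 0 to 11 with copies added as well. Replicate numbers were not taken to pair the libraries. Same-numbered deviations correlated at 0.099, 0.15 and 0.16, and differently numbered ones between -0.19 and 0.19, which does not settle whether libraries are paired. Across regions, libraries 1 and 2 correlated between 0.059 and 0.19, and library 3 with library 1 or 2 between -0.19 and -0.090. The deviations sum to 0 within a region, which ties these values. What sets library 3 apart in both regions was not tested. With replicate numbers as a block 7 mRNAs fell, beside 7.37% of all genes. There mt-Nd2 (edgeR adjusted p = 0.067) and mt-Nd4 (0.098) no longer passed, while mt-Nd1, mt-Co1, mt-Atp6 and mt-Atp8 did. In that fit 2 nuclear list genes rose, beside 6.29% of all genes. With paired libraries 5 of 13 pool shares moved alike in all 3 pairs (smallest sign-flip p 0.25). Of the nuclear list genes, 13 fell and 2 rose with DESeq2, 2 rose with no minimum, and with a library left out 2 to 86 fell and 0 to 2 rose. Pool shares without overlap (2 as reported) were 0 with copies added, 4 with copies added and without dorsal library 3, and 2 to 5 with a library left out. The mt-Nd3 share difference reversed to 0.14 percentage points with copies added and 0.019 with dorsal library 3 also out, where that of mt-Nd6 was -0.11; with a library left out mt-Nd6 ran from -0.13 to 0.60. The log2 fold change of Gm28661 ran from -2.54 to 1.67 with a library left out, never passing. Of Smart-seq2 members lower by 1 or more (12 as reported), there were 3 by medians and 6 to 12 with a library left out, and the share difference stayed between -2.04 and -1.31 points. The cause of these changes was not tested. The 3 libraries per region, the unknown Smart-seq2 depth and the reads shared with nuclear copies limit these values.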
